A study of Homo sapiens with 38 samples.

Results

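The alcohol dehydrogenases are 7 human genes, ADH1A, ADH1B, ADH1C, ADH4, ADH5, ADH6 and ADH7, out of 19744 gene symbols on the array. Their probes were found through the transcript accessions of the array design, and all 7 had at least 1 probe. The family was selected on measured values: its changes with exposure in these same arrays were known when it was chosen, so its differences are given as a description with no p-value. Where the number of members past the call rule is given beside the share of all probes, nothing is read from it. Gene expression was measured on 38 single-dye Agilent Human V2 4x44K arrays of A549 cells, a human lung carcinoma line used as a model of the alveolar epithelium. Cells in serum-free medium received fumed amorphous silica nanoparticles (NPs), and control cells had the same medium without NPs. One set of arrays held 0.1 and 1.0 μg/cm2 at 24 h with 4 arrays per dose and 4 controls, and another held 1.5 μg/cm2 at 24 h with 4 arrays and 4 controls. The last set held 3.0 and 6.0 μg/cm2 at 24 h and at 72 h, with 3 arrays per dose and time and 3 controls at each time. The replicates of a group are labelled as biological ones of a single cell line, and doses of a set shared their controls. For the exposed samples at 72 h one label field gives 24 h while the source name gives 72 h, which was used here.

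Alcohol dehydrogenases are zinc enzymes that pass hydride between an alcohol and NAD, turning ethanol into acetaldehyde and retinol into retinal. ADH1A, ADH1B and ADH1C code for the class I subunits that carry most ethanol oxidation in liver, ADH4 for a liver class II enzyme, and ADH7 for a class IV enzyme of the stomach and upper digestive tract. ADH5 is the ubiquitous class III enzyme, which oxidizes the glutathione adduct of formaldehyde and reduces S-nitrosoglutathione. ADH6 was described in fetal and adult liver, and its enzyme is the least studied. The aldehydes that these enzymes make are oxidized in turn by aldehyde dehydrogenases.

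The 7 genes lie side by side on chromosome 4, with no other protein-coding gene between them and all on the minus strand (RefSeq, GRCh38.p14). In chromosomal order they are ADH5, ADH4, ADH6, ADH1A, ADH1B, ADH1C and ADH7, with METAP1 before ADH5 and C4orf17 after ADH7. RefSeq promoter windows, 250 bases before to 50 bases after a gene's start, were at hand for all 7. The windows of ADH5 and of the 3 genes whose level moved are printed 5′ to 3′ on the strand of the gene, to show how the ubiquitous member differs in sequence from the others. Capitals mark CpG dinucleotides, the sites of DNA methylation.
ADH5, chr4:99088739-99089038, minus strand: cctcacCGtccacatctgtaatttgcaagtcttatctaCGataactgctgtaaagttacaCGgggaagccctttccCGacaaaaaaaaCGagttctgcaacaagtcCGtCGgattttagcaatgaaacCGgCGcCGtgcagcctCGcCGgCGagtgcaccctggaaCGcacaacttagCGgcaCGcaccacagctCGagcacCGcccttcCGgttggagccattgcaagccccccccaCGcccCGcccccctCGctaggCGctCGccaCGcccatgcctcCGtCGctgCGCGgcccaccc
ADH4, chr4:99144248-99144547, minus strand: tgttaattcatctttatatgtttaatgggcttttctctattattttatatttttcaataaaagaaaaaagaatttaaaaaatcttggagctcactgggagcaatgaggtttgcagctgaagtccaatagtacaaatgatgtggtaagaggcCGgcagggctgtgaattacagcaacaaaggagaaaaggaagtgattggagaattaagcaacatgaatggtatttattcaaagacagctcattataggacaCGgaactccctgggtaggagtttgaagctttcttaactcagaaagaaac
ADH6, chr4:99219197-99219496, minus strand: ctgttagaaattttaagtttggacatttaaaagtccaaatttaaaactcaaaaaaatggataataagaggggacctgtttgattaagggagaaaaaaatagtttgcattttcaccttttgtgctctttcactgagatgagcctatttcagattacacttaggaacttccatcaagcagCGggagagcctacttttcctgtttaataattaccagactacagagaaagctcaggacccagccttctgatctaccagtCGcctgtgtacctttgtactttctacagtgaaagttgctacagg
ADH1C, chr4:99352697-99352996, minus strand: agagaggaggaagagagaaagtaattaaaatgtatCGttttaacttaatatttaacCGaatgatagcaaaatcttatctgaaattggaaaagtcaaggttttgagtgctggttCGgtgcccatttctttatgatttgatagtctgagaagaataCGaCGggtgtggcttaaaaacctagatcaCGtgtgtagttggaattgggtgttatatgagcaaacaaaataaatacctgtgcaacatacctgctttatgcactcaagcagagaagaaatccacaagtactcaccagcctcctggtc
The ADH5 window held 29 CpGs and 61.3% G or C. The ADH4, ADH6 and ADH1C windows held 2, 2 and 6 CpGs and 35.7%, 38% and 38% G or C. Over all 35116 RefSeq promoter windows of the same length, the median was 14 CpGs and 58.7% G or C, 24.2% of windows held at least 29 CpGs and 18.2% held at most 2. The windows of ADH1A and ADH1B held 1 CpG each, and the 2 windows of ADH7 held 1 and 2. The letters TTNCNNAA, a form bound by C/EBP factors, were found on either strand in 36.8% of all windows, with 2 matches in each of the ADH5 and ADH4 windows but not in those of ADH6 and ADH1C. The letters GTTAAT, part of the site of HNF1, were in 6.9% of all windows and, among the 4 printed, in that of ADH4 only. A match of letters is a description and shows no binding.

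Levels are given as the log2 of the background-subtracted signal of the gene's brightest probe minus the 75th percentile of the same array, so that a level of 0 is that percentile and a step of 1 is 2-fold. Levels of different genes come from different probes and cannot be set against each other. A probe is well above background where the scanner software marked it so. The ADH5 probe was well above background on 38 of 38 arrays, the ADH1C probe on 33, the ADH6 probe on 21, the ADH4 probe on 6 and the ADH1A probe on 1. The probes of ADH1B and ADH7 were on 0 of 38 arrays, as was a further ADH6 probe for another transcript, NM_001102470, so what is said of ADH6 rests on the probe for NM_000672. In a bulk sample, fewer cells that make an RNA and less of it in each cell cannot be told apart.

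**Figure D1:**
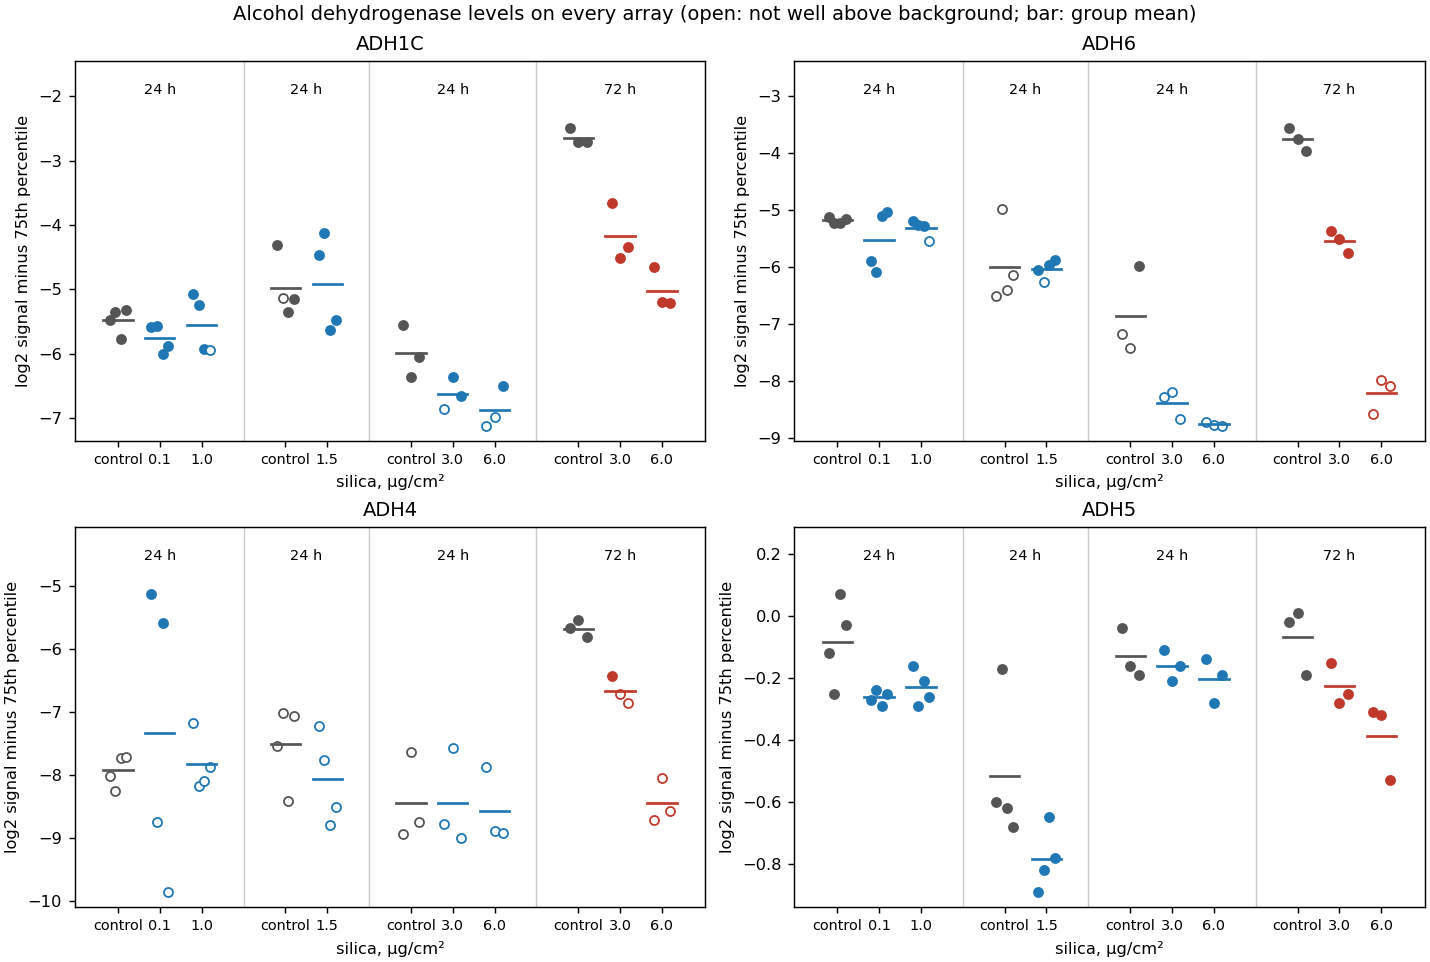
Level of ADH1C, ADH6, ADH4 and ADH5 (log2 signal minus the array's 75th percentile, vertical axis with its own range for each gene) on each of the 38 arrays by silica dose, the vertical lines parting the sets and times; filled points are well above background, open ones are not, and bars are group means. The group means of ADH1C, ADH6 and ADH4 were highest in control cells at 72 h and lower at 3.0 and 6.0 μg/cm2. ADH1C lay between -2.72 and -2.50 in those controls. A single ADH4 array at 0.1 μg/cm2 stood higher than its controls at 72 h, at -5.13. All ADH5 values lay between -0.89 and 0.07.

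Unexposed cells at 72 h and at 24 h show how the levels of the family stood in culture without NPs. The control arrays at 72 h are the same ones that the exposed cells at 72 h were set against when the genes were chosen, so these values too are a description. ADH1C, ADH6 and ADH4 stood higher at 72 h, and ADH5 stood at nearly the same level. ADH1C levels were -5.55, -6.37 and -6.05 on the 3 control arrays at 24 h and -2.50, -2.71 and -2.72 at 72 h, without overlap. The difference was 3.35 on the log2 scale (SE 0.20, 10.2-fold, n = 3 and 3). ADH6 levels were -7.17, -7.41 and -5.98 at 24 h, of which only the last was well above background, and -3.57, -3.76 and -3.96 at 72 h. The measured difference was 3.09 (SE 0.36), with only 1 of 3 arrays at 24 h behind it that was above background. ADH4 was not well above background on the 3 arrays at 24 h, with levels of -8.94, -7.63 and -8.75, and was on all 3 at 72 h, with -5.67, -5.54 and -5.81. It was 4.28-fold higher at 72 h (measured difference 2.76, SE 0.33) when levels below the array's dimmest signal called well above background were raised to that signal. That dimmest signal may be of any probe, and a given probe could miss the mark at a higher level. A fold of this kind is therefore no lower bound. ADH5 differed by 0.06 (SE 0.08), from a mean of -0.13 to one of -0.07.

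A probe entered the fits where all arrays of 1 or both groups were well above background, and it was called where the limma adjusted p was under 0.05 and the change at least 1.5-fold. Of the 7 members 4 entered, ADH4 and ADH6 through the arrays at 72 h alone, where they are high, and 3 were past the call rule as higher and 0 as lower. Of all 22165 probes that entered, 13.4% were called higher and 6.73% lower. The sizes depended on how background was treated. With a normexp correction the differences were 1.77 for ADH1C, 1.04 for ADH6 and 0.65 for ADH4. That correction also added an offset of 50 to every signal, which by itself draws log2 differences between dim signals toward 0.

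At 72 h the same 3 genes stood lower in exposed cells than in control cells. For ADH1C, a class I subunit, the levels at 3.0 μg/cm2 were -3.66, -4.51 and -4.35, and at 6.0 μg/cm2 they were -4.66, -5.19 and -5.21. All 6 lay below the 3 controls, and the differences were -1.53 (SE 0.23, 2.89-fold lower) and -2.38 (SE 0.16, 5.2-fold lower). For ADH6 the levels at 3.0 μg/cm2 were -5.36, -5.51 and -5.75, a difference of -1.78 (SE 0.14, 3.43-fold lower). At 6.0 μg/cm2 no array had an ADH6 signal well above background, with -8.57, -7.97 and -8.09. The control mean was -3.76 and the exposed mean -8.21 (measured difference -4.45, SE 0.17). Set against the dimmest signal as above, ADH6 was 16.9-fold lower, which is no lower bound.

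ADH4, the class II gene, was well above background on 1 of 3 arrays at 3.0 μg/cm2, with levels of -6.43, -6.72 and -6.85, which lay below its controls by 0.99 (SE 0.13). At 6.0 μg/cm2 it was above background on 0 of 3, with -8.72, -8.05 and -8.58. Set against the dimmest signal in the same way, ADH4 was 4.52-fold lower (measured difference -2.77, SE 0.18). In each of these 2 comparisons 4 of 7 members entered the fit, and 3 were past the call rule as lower and 0 as higher. ADH4 at both doses and ADH6 at 6.0 μg/cm2 entered through the controls alone, where they are high. Of all probes, 3.8% were called lower at 3.0 μg/cm2 and 10.5% at 6.0 μg/cm2.

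All exposed arrays at 72 h were scanned on another day than their controls, so scan day and exposure cannot be told apart there. The sizes shrank with the normexp correction and its offset of 50, at 6.0 μg/cm2 to -1.37 for ADH1C, -1.10 for ADH6 and -0.55 for ADH4. ADH4 was then short of 1.5-fold at both doses, with -0.28 at 3.0 μg/cm2.

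The exposed arrays at 72 h shared a scan day, so both doses can be set side by side. For ADH1C the mean level at 6.0 minus that at 3.0 μg/cm2 was -0.85, without overlap of the arrays. ADH6 went from a mean of -5.54, with 3 of 3 arrays above background, to -8.21, with 0 of 3, and ADH4 from -6.67, with 1 of 3, to -8.45, with 0 of 3, so that their values at 6.0 μg/cm2 are levels at background. Control cells at 24 h were scanned on another day than the exposed cells at 72 h, and scan day cannot be told apart from that difference either. ADH1C stood 1.82 higher than in those controls at 3.0 μg/cm2 and 0.97 higher at 6.0 μg/cm2. The means in the 24 h controls were -6.85 for ADH6, with 1 of 3 arrays above background, and -8.44 for ADH4, with 0 of 3.

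**Figure D2:**
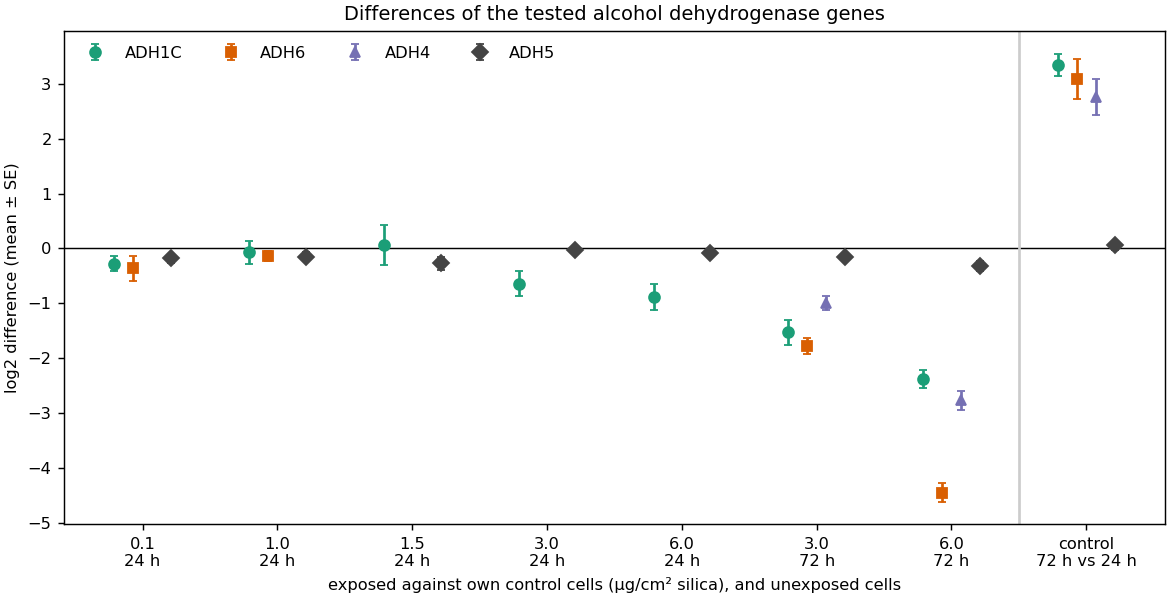
Log2 difference of ADH1C, ADH6, ADH4 and ADH5 between exposed and control cells at each dose and time (left) and between unexposed cells at 72 h and 24 h (right), with bars of 1 SE; genes that did not enter the fit of a comparison have no point, and values of groups at background are included as measured. ADH1C, ADH6 and ADH4 reached -2.38, -4.45 and -2.77 at 6.0 μg/cm2 and 72 h and 3.35, 3.09 and 2.76 in unexposed cells, while ADH5 stayed between -0.32 and 0.06.

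At 24 h the differences were smaller and closer to background. ADH1C levels were -6.86, -6.37 and -6.66 at 3.0 μg/cm2 and -7.12, -6.99 and -6.50 at 6.0 μg/cm2, with 2 and 1 of the 3 arrays well above background. The difference from the controls was -0.64 (SE 0.22) and -0.88 (SE 0.24), and the arrays of neither dose overlapped with the controls, though at 3.0 μg/cm2 the highest exposed and the lowest control value were both -6.37 when rounded. Past the call rule as lower were 0 of the 2 members that entered the fit at 3.0 μg/cm2, where 1.38% of all probes were. At 6.0 μg/cm2 it was 1 of 2, ADH1C, where 5.37% of all probes were. ADH1C entered both fits through the controls alone, where it is high. With a normexp correction the ADH1C difference at 6.0 μg/cm2 was 0.20. ADH1C was also not past the rule with no filter on dim probes, quantile normalization, the series matrix values or the methods' t-test. The same held with the replicate number, here the slide, as a block or without control replicate 1 or 3 or exposed replicate 1 or 2. No exposed array of either dose had ADH6 well above background, with levels from -8.78 to -8.19, and only 1 of its 3 controls was, so it did not enter the fit. Its measured differences were -1.52 at 3.0 μg/cm2 and -1.9 at 6.0 μg/cm2. Most values on both sides were at background, so no fold is given.

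At 0.1 μg/cm2 the differences were -0.28 (SE 0.14) for ADH1C, -0.36 (SE 0.23) for ADH6 and -0.18 (SE 0.08) for ADH5, and 0 of the 3 members in the fit were past the call rule. No probe of the array was called at that dose by limma (0%, with 2050 of 21717 at an unadjusted p under 0.05). At 1.0 μg/cm2 they were -0.07 (SE 0.21), -0.14 (SE 0.09) and -0.15 (SE 0.08), with 0 of 3 called beside 0.00948% of all probes. At 1.5 μg/cm2 the values were 0.06 (SE 0.37) for ADH1C and -0.27 (SE 0.12) for ADH5, with 0 of 2 called beside 2.47% of all probes. That set was scanned on 2 days with both groups on each: ADH1C differed by 0.42 on one and -0.30 on the other, and ADH5 by -0.47 and -0.06. ADH4 stood out at 0.1 μg/cm2, where 2 arrays were well above background with -5.13 and -5.58 while the other 2 were at -8.75 and -9.86.

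ADH5, the formaldehyde and S-nitrosoglutathione enzyme, had the narrowest range of the family, from -0.89 to 0.07 over the 38 arrays. Its lowest values were in the set of 1.5 μg/cm2, with -0.89, -0.82, -0.65 and -0.78 in exposed cells. The controls of that set stood at -0.60, -0.17, -0.62 and -0.68. At 72 h its levels were -0.02, 0.01 and -0.19 in controls, -0.15, -0.28 and -0.25 at 3.0 μg/cm2 and -0.31, -0.32 and -0.53 at 6.0 μg/cm2. The difference at 6.0 μg/cm2 was -0.32 (SE 0.09), a 1.25-fold lower level without overlap of the groups but short of the fold threshold.

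ADH1A and ADH1B, the other class I genes, and ADH7 were near background throughout. ADH1A lay between -9.06 and -6.27, the highest being the 1 array where it was well above background, replicate 1 at 3.0 μg/cm2 and 72 h. ADH1B lay between -9.91 and -6.69 and ADH7 between -9.91 and -6.56. No fold is given for ADH1B and ADH7, because both groups of each comparison were at background, nor for ADH1A, where all but that 1 array were.

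Of the 13 genes next to the family on chromosome 4 that were fixed as a list, 9 were tested in unexposed cells, of which 0 were called higher and 1 lower at 72 h, beside 13.4% and 6.73% of all probes, with a median difference of -0.22. The one was LAMTOR3, a subunit of the Ragulator complex, at -0.65 (SE 0.08, limma adjusted p = 0.000972). At 6.0 μg/cm2 and 72 h, 1 of 9 was called lower and 0 higher, beside 10.5% and 6.62% of all probes, with a median of -0.01, and it was DDIT4L, an inhibitor of mTOR signalling, at -1.60 (SE 0.09, limma adjusted p = 7.4e-05). METAP1, the gene beside ADH5, differed by 0.13 (SE 0.06) at 6.0 μg/cm2 and by -0.22 (SE 0.05) in unexposed cells. TRMT10A, the nearest tested gene beyond ADH7, differed by -0.07 (SE 0.06) and -0.40 (SE 0.06).

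**Figure D3:**
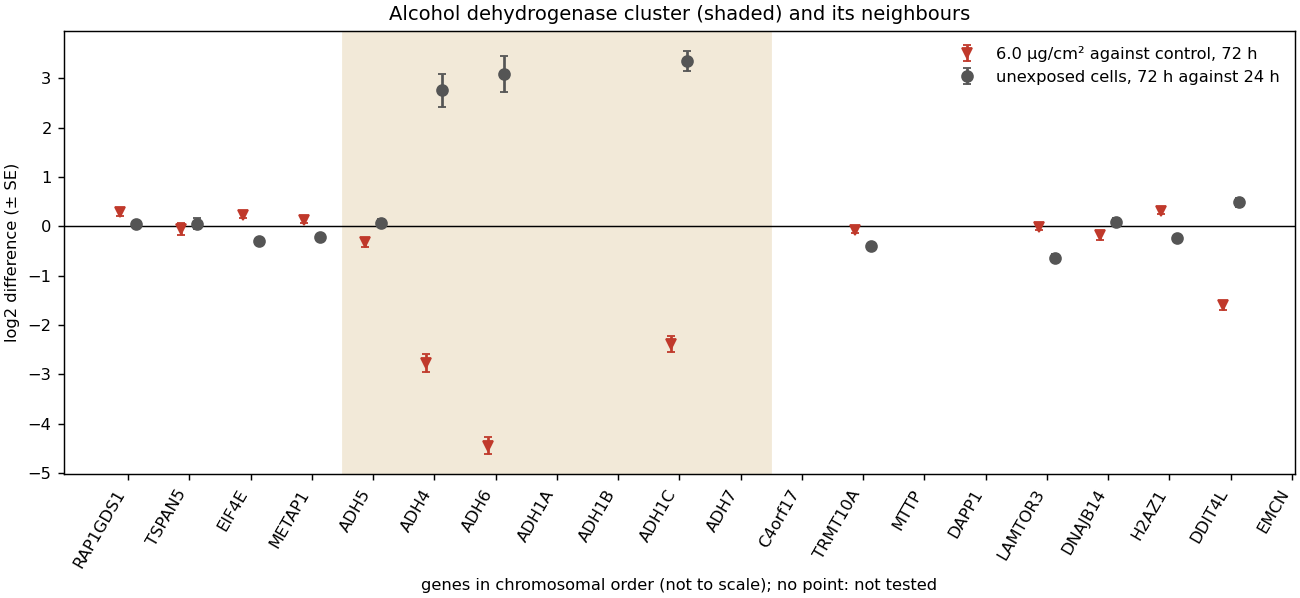
Log2 difference with bars of 1 SE for the alcohol dehydrogenase genes (shaded) and their neighbours in chromosomal order, at 6.0 μg/cm2 against control cells at 72 h (triangles) and in unexposed cells at 72 h against 24 h (circles); genes without a point were not tested. Both comparisons use the same 3 control arrays at 72 h, with opposite sign, so their directions are not independent. Of the neighbours tested, DDIT4L at -1.60 lay farthest from 0.

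Genes of linked pathways were counted from fixed lists, with tests from the fits over all probes. For these and the lists below, the 72 h and unexposed comparisons share the same control arrays at 72 h, with opposite sign. A fall in the one and a rise in the other are therefore not independent. Scan day and exposure cannot be told apart at 72 h for these genes either. Among aldehyde dehydrogenases, which act on the products of the ADH enzymes, 1 of 15 tested was called higher and 3 lower at 6.0 μg/cm2 and 72 h, beside 6.62% and 10.5% of all probes, with a median of -0.45. ALDH2, the mitochondrial enzyme that clears acetaldehyde, fell by 1.16 (SE 0.06, limma adjusted p = 6.5e-05) and had risen by 1.14 in unexposed cells from 24 h to 72 h (SE 0.07, limma adjusted p = 0.000108). ALDH6A1, of valine breakdown, fell by 1.13 and ALDH3B1 fell by 0.99. ALDH1A3, a retinal dehydrogenase, rose by 1.00 (SE 0.07, limma adjusted p = 0.000118) and had fallen by 0.60 in unexposed cells. At 24 h and 6.0 μg/cm2, 1 of 16 was called higher, ALDH1A3 with 0.82, and 1 lower, ALDH1L1 with -1.64, beside 3.95% and 5.37% of all probes.

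In the retinoid list, 1 of 19 tested was called higher and 6 lower at 6.0 μg/cm2 and 72 h, beside 6.62% and 10.5% of all probes, with a median of -0.20. RBP4, the carrier of retinol in plasma, fell by 1.84 (SE 0.06, limma adjusted p = 1.91e-05), the retinoic acid binding protein CRABP1 fell by 1.82 and the retinol dehydrogenase RDH10 fell by 1.22. CYP26A1, which breaks down retinoic acid, rose by 1.06 (SE 0.07, limma adjusted p = 9.46e-05). In unexposed cells 9 of 19 rose from 24 h to 72 h and 1 fell, beside 13.4% and 6.73% of all probes, with RBP4 at 1.28 and DHRS3, a retinal reductase, at 1.96, and with a median of 0.16. At 24 h and 6.0 μg/cm2, 3 of 19 were called lower and 0 higher, beside 5.37% and 3.95% of all probes, namely BCO1 (-1.11), RBP4 (-0.78) and RDH5 (-0.63).

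The aldo-keto reductases, which reduce aldehydes and ketones with NADPH, had 4 of 8 called lower and 0 higher at 6.0 μg/cm2 at both times, where 5.37% of all probes were called lower at 24 h and 10.5% at 72 h. At 72 h AKR1C4 differed by -1.03, AKR1C1 by -1.01 and AKR1C3 by -0.86, and at 24 h AKR1C4 differed by -1.22, AKR1B10 by -0.74 and AKR1C1 by -0.74. The AKR1C genes are close copies of each other, so their probes may share signal. In unexposed cells 0 of 8 were called by limma with a median of 0.23, beside 20.2% of all probes in either direction. There 5 of 8 had an adjusted p under 0.05 without the fold threshold. The genes that act with ADH5 on formaldehyde and glutathione had 0 of 6 called at 6.0 μg/cm2 and 72 h and 0 of 6 in unexposed cells. Of all probes, 17.1% and 20.2% were called in either direction there. ESD was at 0.07 (SE 0.06) at 6.0 μg/cm2 and 72 h. At 24 h GCLC, a subunit of the enzyme that starts glutathione synthesis, fell by 0.92 at that dose (SE 0.08, limma adjusted p = 0.000409). It was the 1 of 6 called there, beside 5.37% of all probes called lower. Of 3 tested genes for other steps of ethanol and acetate use, ACSS2, which makes acetyl-CoA from acetate, rose by 0.94 at 6.0 μg/cm2 and 24 h (SE 0.07, limma adjusted p = 0.000202), where 3.95% of all probes were called higher. At 72 h and that dose 0 of 3 were called, beside 17.1% of all probes in either direction.

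**Figure D4:**
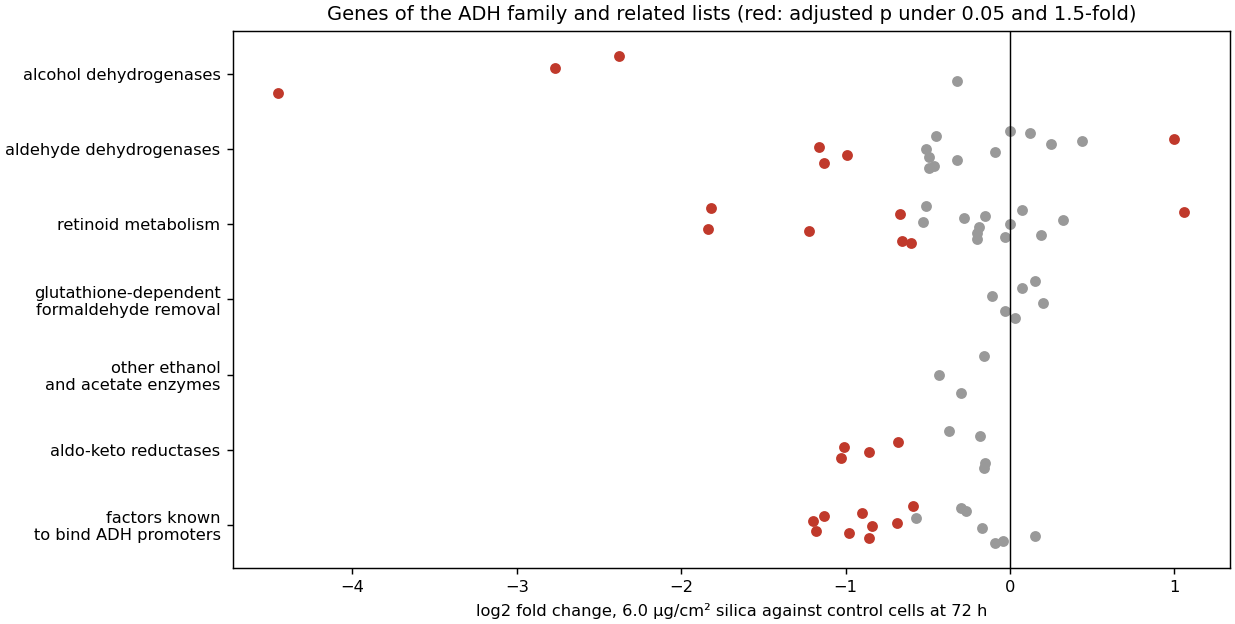
Log2 fold change of each tested gene at 6.0 μg/cm2 against control cells at 72 h, 1 point per gene and 1 row per list, red where the adjusted p was under 0.05 and the change at least 1.5-fold. The alcohol dehydrogenases are shown as a description, since this contrast was used to choose them, and the points of ADH6 and ADH4 are measured against exposed arrays at background. In the other lists the values ran from -1.84 for RBP4 to 1.06 for CYP26A1.

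Among factors known to bind promoters of ADH genes in liver, 9 of 16 tested were called lower and 0 higher at 6.0 μg/cm2 and 72 h, beside 10.5% and 6.62% of all probes, with a median of -0.64. At 3.0 μg/cm2 there were 5 of 16 lower at 72 h and 1 of 15 at 24 h, beside 3.8% and 1.38%. At 0.1, 1.0 and 1.5 μg/cm2, 0 of 14 were called lower, beside 0%, 0.00474% and 0.0665% of all probes. At 1.5 μg/cm2, 1 of 14 was called higher, beside 2.4%, namely ONECUT1 at 0.59 (SE 0.12, limma adjusted p = 0.0411). FOXA3 and FOXA1, pioneer factors of endoderm genes, fell by 1.20 (SE 0.08, limma adjusted p = 0.000103) and 1.13 (SE 0.07, limma adjusted p = 8.48e-05). HNF4A, a nuclear receptor of hepatocyte genes, fell by 1.18 (SE 0.33, limma adjusted p = 0.0271), and only 1 of its 3 exposed arrays was well above background. In unexposed cells 5 of 16 rose from 24 h to 72 h and 0 fell, beside 13.4% and 6.73% of all probes, with a median of 0.44. Among them were FOXA3 at 1.52 (SE 0.08, limma adjusted p = 5.92e-05) and HNF4A at 0.82 (SE 0.19, limma adjusted p = 0.0108). DBP, a circadian factor of the PAR bZIP family, rose by 2.28 (SE 0.07, limma adjusted p = 1.66e-05). HNF4A entered that fit through the arrays at 72 h alone, where it is high. At 24 h and 6.0 μg/cm2, 6 of 15 were called lower, beside 5.37% of all probes, with FOXA3 at -0.87 and FOXA1 at -0.80, and 1 higher, beside 3.95%, CEBPB at 0.72 (SE 0.05, limma adjusted p = 0.000242). HLF, a relative of DBP, was among the lower ones, with a mean of -6.10 in controls and no exposed array above background.

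Markers of other cell types also moved. Of 8 hepatocyte markers, 5 were tested at 6.0 μg/cm2 and 72 h and all 5 were called lower, beside 10.5% of all probes, with a median of -1.91. ALB, for serum albumin, fell by 3.29 (SE 0.18, limma adjusted p = 6.07e-05) and TTR, for transthyretin, fell by 1.91 (SE 0.21, limma adjusted p = 0.000776). APOA2, APOC3 and CYP3A4 were not tested there. At 24 h and 6.0 μg/cm2, 1 of 4 was called lower and 0 higher, beside 5.37% and 3.95% of all probes. TTR was at 0.50 there, and at 3.0 μg/cm2 and 24 h it was called higher with 0.61. In unexposed cells 3 of 5 rose, beside 13.4% of all probes, among them ALB at 1.44 (SE 0.17, limma adjusted p = 0.000794), with a median of 1.44. ALB entered that fit through the arrays at 72 h alone, where it is high, so not all its 24 h controls were well above background. The ALB fall at 6.0 μg/cm2 and 72 h was larger than this rise. The exposed mean therefore lay below that of the dim 24 h controls. The size of the ALB fall may rest on signals at background and is given as measured. The summed level of the 8 markers was 0.89 to 1.12 in controls at 24 h, 1.42 to 1.65 at 72 h, and 0.48 to 0.66 at 6.0 μg/cm2 and 72 h. All 5 epithelial markers were well above background on every array, with a summed level of 8.35 to 9.14, and of 9 markers of alveolar type II cells, the cell type that A549 cells are held to resemble, 3 to 7 were per array. Of the epithelial markers 2 of 5 were called lower at 6.0 μg/cm2 at both times. CDH1 stood at -1.22 at 24 h and -1.42 at 72 h, and EPCAM at -0.80 and -1.17. KRT19 was called higher at 24 h with 0.78, the 1 of 5. At 72 h the median of the 5 was -0.43. Of 5 alveolar type II markers tested at that dose, 1 was called lower and 0 higher at each time, with medians of -0.03 and -0.35. Of 2 fibroblast markers tested, 2 were called lower at 24 h and 1 at 72 h, with COL1A1 at -1.85 and -1.65. Of all probes, 5.37% were called lower and 3.95% higher at 24 h, and 10.5% lower and 6.62% higher at 72 h. Of 3 leukocyte markers tested in unexposed cells, CD14 rose by 3.39 (SE 0.05, limma adjusted p = 5.59e-06) while ITGAM and PTPRC were at -0.42 and -0.43 and were not called. At 6.0 μg/cm2 and 72 h CD14 fell by 1.39, ITGAM rose by 0.65 and PTPRC was at 0.13. The summed level of the list followed CD14, with -1.63 to -1.54 in controls at 24 h, 1.34 to 1.41 at 72 h and -0.01 to 0.15 at 6.0 μg/cm2 and 72 h. The part of any of these in the ADH values was not tested.

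The genes whose pattern was most like that of an ADH gene were sought by Pearson correlation, as a description. Over the 24 exposed arrays, each taken as the difference from its own controls and compared with 15502 probes, the closest to ADH5 were TCIM (r = 0.855), SCAMP1 (0.842), RFTN1 (0.840), KDSR (0.787) and TSG101 (0.784). No other member was bright enough in all controls for that measure. Over the levels on the 18 arrays of the set with 3.0 and 6.0 μg/cm2, a range chosen after values were seen, the closest of 17781 probes to ADH1C were CLDN7 (r = 0.983), VWA1 (0.983), PMEL (0.980), P4HB (0.978) and FOXA3 (0.976). These arrays form 6 groups that share time and dose, so a correlation over them mostly compares groups.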

How the data were processed

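The deposited scanner files hold, for each of 43118 non-control spots, an intensity that the authors' Agilent Feature Extraction software (10.10.1.1 or 11.0.1.1, per the file headers) had corrected for background, with marks for spots well above background. The series matrix the authors deposited repeats the median intensity. Here each array's 75th percentile (740.42 to 3201.9) was subtracted on the log2 scale, control and flagged spots (0.612%) were dropped and spots of a probe averaged. Between 57.9% and 75.3% of spots were well above background, and the number of arrays limits the precision. Each group was compared with its controls in R 4.3.3 with limma 3.58.1, over probes that all arrays of 1 or both groups showed well above background, with Benjamini-Hochberg adjusted p-values, and a fold threshold of 1.5. The fit was tested on simulated data. Same-numbered arrays shared a slide in the 1.5 μg/cm2 set and among the 24 h and control arrays of the last set. Their deviations correlated between -0.03 and 0.44 there. In the set of 0.1 and 1.0 μg/cm2 replicates 1 to 3 shared slides too, with correlations between -0.39 and -0.01. The number was therefore also fitted as a block. The probe with the highest mean stood for its gene, and from each linked list up to 3 higher and 3 lower genes called at 6.0 μg/cm2 were named; others named were chosen after their values were seen. Members and lists were chosen with earlier results of these data known. Alternatives were normexp with an offset of 50, quantile scaling, other filters, the series matrix, the methods' t-test, blocks and left-out arrays.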

Additional observations from a re-analysis of the deposited data

Results flagged for a closer look

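Among 35 groups of 4 arrays and genes, 4 held an array far from the other 3, and chance gives about 1 in 20. For ADH5, replicate 2 of the controls of the 1.5 μg/cm2 set stood at -0.17 while the others lay between -0.68 and -0.60. Replicate 4 at 1.0 μg/cm2 stood apart for ADH1B, at -8.00 against -9.20 to -9.07, and for ADH7, at -8.07 against -9.21 to -9.03. Replicate 4 at 0.1 μg/cm2 was low for ADH7, at -9.91 against -8.98 to -8.82. The ADH1B and ADH7 signals were not well above background on these arrays.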

How the results depend on the processing

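The counts of ADH genes called kept within 1.5 times of their value in 140 of 152 recalculations. These include the ones at 0.1, 1.0, 1.5 and 3.0 μg/cm2 at 24 h, where the count was 0 before and after. Most of the moves were at 6.0 μg/cm2 and 24 h. At 6.0 μg/cm2 and 24 h the count went from 1 to 0 under normexp, quantile normalization, a filter on every array of both groups, the series matrix values, the methods' t-test and the replicate block, and it was 0 to 1 when 1 array was left out. With normexp, ADH1C at that dose and time reversed to 0.20 (SE 0.31). With no filter on dim probes ADH1C itself lost its call there too. The filter on every array of both groups left 1 called in place of 3 at 6.0 μg/cm2 and 72 h and in unexposed cells, because it removes probes that are dim in a group. ADH4 at 3.0 μg/cm2 and 72 h lost its call when all arrays of the set shared 1 fit. The replicate block moved no other count of ADH genes called. Same-numbered arrays correlated between -0.47 and 0.44 in their deviations over all comparisons. On the series matrix values, which hold no background subtraction, ADH6 differed by -1.73 and ADH4 by -1.09 at 6.0 μg/cm2 and 72 h, and ADH1C, ADH6 and ADH4 by 1.78, 0.99 and 0.61 in unexposed cells. Counts for the linked lists moved by over 1.5 times in 28 of 371 recalculations, as where the fold threshold was dropped and 11 in place of 4 aldehyde dehydrogenases were called at 6.0 μg/cm2 and 72 h. A random block for the slide could not be fitted at 72 h.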
